A study of Mus musculus with 19 samples.

Results

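Reactive astrocytes are the enlarged state that astrocytes enter when the brain is injured, inflamed or degenerating. The 10 genes described here are Gfap, Vim, Serpina3n, Cd44, Osmr, Timp1, Cp, Steap4, S1pr3 and Cxcl10. They are commonly used as markers of this state, and were taken by name (GENCODE M21) from the 41128 Ensembl genes of the count table. All 10 passed the filter on low counts, as did 16841 genes in all. The mice were 3 months old, of the labelled strain C57BL/6, and were either wild-type (WT) or SCA17 knock-in (KI). KI mice carry a germline expansion of the polyglutamine tract of TBP, the TATA box-binding protein, in every cell, so an effect in astrocytes cannot be told apart from one that begins in neurons. The study asked how mutant TBP changes gene expression in different brain regions. Bulk RNA was sequenced from the cerebellum (3 WT and 4 KI libraries), the striatum (3 and 3) and the prefrontal cortex (3 and 3), which makes 19 libraries in 6 groups. Totals lay between 10639110 and 17431284 counts a library. Libraries are named below by their number within region and genotype.

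Astrocytes support neurons, clear transmitters and line blood vessels. When they become reactive they assemble more intermediate filament, which is built of GFAP and vimentin, and they secrete protease inhibitors, metal-handling proteins and chemokines. Cytokines of the interleukin-6 family, among them oncostatin M acting through OSMR, drive much of this response through the transcription factor STAT3, and interferons induce others of its genes, such as Cxcl10. In the cerebellum, a specialised astrocyte, the Bergmann glial cell, surrounds the Purkinje cell and also contains GFAP and vimentin. In bulk tissue, fewer cells of a type and less RNA per cell cannot be told apart.

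Several features of the libraries touch the members and come first. Tbp, the altered gene, was read at 52.5 to 62.0 CPM (counts per 1000000 of the TMM-scaled library total) in WT and 48.5 to 56.6 CPM in KI cerebellum, and its gene-level count does not read the length of the expanded tract. Choroid plexus markers, summed over 10 genes, reached 2011 CPM in cerebellum WT 1 and 5090 CPM in cerebellum KI 3, against 21.5 to 45.5 CPM in the other cerebellum libraries, and lay between 1581 and 9222 CPM in the striatum. Markers of the leptomeninges, the thin coverings of the brain, were low in prefrontal cortex KI 2 (350 CPM, against 1320 to 2117 CPM in the other cortex libraries). In the striatum, summed markers of striatal neurons were 8165 to 9498 CPM in WT and 4233 to 6235 CPM in KI libraries. All 6 estimates of that list were below 0 there (median log2 -0.67), but 0 of the 6 genes were called. Resting astrocyte markers, a list of 15 genes such as Slc1a2 and Aldoc, were detected in every library, at summed levels of 4644 to 9890 CPM, so astrocyte RNA was present throughout.

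Promoters are shown for the 4 members on which the results turn, Serpina3n, Cxcl10, Vim and Gfap. Each run covers 250 bases before to 50 after the RefSeq start (build GRCm38.p6), 5′ to 3′ on the gene's strand. Capitals mark matches to 3 motifs searched on both strands, namely the TATA box TATAAA, the STAT-type element TTCNNNGAA, and an interferon response type element of GAAA, any 2 bases and GAAA again. The Serpina3n window is chr12:104406458-104406757 (plus strand), the Cxcl10 window chr5:92348840-92349139 (minus), the Vim window chr2:13574061-13574360 (plus) and the Gfap window chr11:102897151-102897450 (minus).
Serpina3n: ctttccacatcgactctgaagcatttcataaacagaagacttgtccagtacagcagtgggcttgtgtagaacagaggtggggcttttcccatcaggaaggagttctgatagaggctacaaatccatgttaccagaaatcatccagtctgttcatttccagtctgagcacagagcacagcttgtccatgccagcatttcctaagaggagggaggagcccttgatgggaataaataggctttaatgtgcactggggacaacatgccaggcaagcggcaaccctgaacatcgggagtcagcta
Cxcl10: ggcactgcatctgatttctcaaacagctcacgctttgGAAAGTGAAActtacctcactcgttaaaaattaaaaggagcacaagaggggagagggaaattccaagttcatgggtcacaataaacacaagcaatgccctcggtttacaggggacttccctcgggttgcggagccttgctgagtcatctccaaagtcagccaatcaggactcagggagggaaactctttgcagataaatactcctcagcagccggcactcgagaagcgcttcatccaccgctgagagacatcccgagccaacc
Vim: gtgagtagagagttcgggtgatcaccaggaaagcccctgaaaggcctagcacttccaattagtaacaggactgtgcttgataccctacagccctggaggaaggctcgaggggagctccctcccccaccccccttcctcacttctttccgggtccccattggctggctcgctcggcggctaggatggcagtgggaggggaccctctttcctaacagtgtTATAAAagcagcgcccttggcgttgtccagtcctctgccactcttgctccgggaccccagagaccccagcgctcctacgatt
Gfap: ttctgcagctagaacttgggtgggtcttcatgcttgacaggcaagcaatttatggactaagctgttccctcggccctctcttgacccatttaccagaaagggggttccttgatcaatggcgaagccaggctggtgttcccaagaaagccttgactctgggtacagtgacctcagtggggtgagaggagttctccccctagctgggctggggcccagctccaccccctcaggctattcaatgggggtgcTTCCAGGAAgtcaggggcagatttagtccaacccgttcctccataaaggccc
The Vim window held TATAAA at positions -32 to -27, counting the start as 0, and the Cxcl10 window held the interferon response type element at -213 to -204. The Gfap window held TTCNNNGAA at -2 to 6, and the Serpina3n window held none of the 3. Among all 10 members, 3 held TATAAA (Vim, Cp and Steap4), 2 held TTCNNNGAA (Gfap and Steap4) and 1 held the interferon response type element (Cxcl10). The shares among all 32851 promoters of the table were 13.6%, 8.3% and 3.44%. Cp has 2 listed promoters, of which 1 held TATAAA in both orientations in overlapping bases. These matches describe the letters of the window and say nothing of a bound factor.

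In WT brain the members spanned a wide range of levels. Compared per exon length (RPKM, the CPM per kilobase of exon), Gfap ranked first in all 3 regions, with a cerebellar level of 58.2 ± 2.13 RPKM, a striatal level of 44.8 ± 10.8 and a cortical level of 72.4 ± 19.1 (mean ± SD, n = 3 libraries each). Vim ranked 2 in the cerebellum (22.7 ± 2.06 RPKM) and striatum (4.62 ± 0.699) and 3 in the cortex (5.30 ± 0.732), behind Serpina3n (6.76 ± 0.508). At the other end, Cxcl10 was read 0 to 12 times a library in WT mice, and Timp1 1 to 26 times. Gfap thus had the highest level per length, and Cxcl10 the lowest, in each region.

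**Figure D1:**
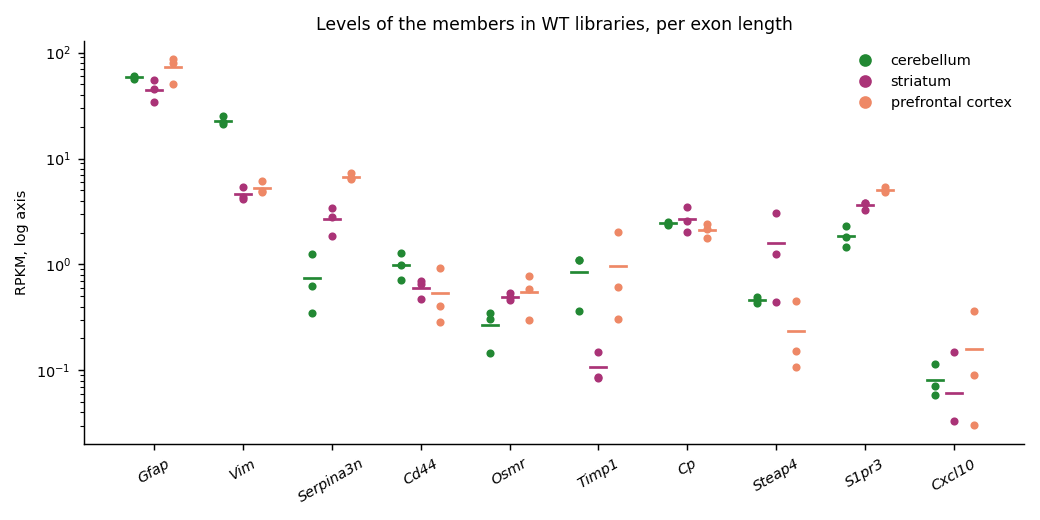
Level of each member in WT libraries (vertical axis, RPKM on a log scale) in the cerebellum, striatum and prefrontal cortex; points are libraries, bars the mean of 3, and 1 striatum library with 0 Cxcl10 counts is not drawn. Gfap stands highest, Vim is higher in the cerebellum, and S1pr3 is lowest in the cerebellum and highest in the cortex.

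The regional comparison of WT libraries called 4 members between cerebellum and striatum (56.5% of all tested genes were called), 4 between cerebellum and prefrontal cortex (52%) and 2 between striatum and prefrontal cortex (30.5%), by edgeR's quasi-likelihood test at an adjusted p of 0.05. Vim, the vimentin gene, was 99.4, 118 and 105 CPM in the 3 WT cerebellum libraries, above all striatum (19.5 to 25.7 CPM) and cortex libraries (22.7 to 29.1 CPM). Its log2 differences were 2.29 (SE 0.143, adjusted p = 6.97e-10) against striatum and 2.10 (SE 0.141, adjusted p = 2.4e-09) against cortex. The listed Bergmann glia markers were Gdf10, Hopx, Fabp7, Slc1a6, Sept4 and A2m, which bulk tissue cannot assign to 1 cell type. Slc1a6, with a mean of 105 CPM over all libraries, is also expressed by Purkinje cells. The summed level of the list was also highest in the cerebellum, at 1520 to 1826 CPM in WT libraries against 345 to 397 CPM in WT striatum. S1pr3, a receptor for the lipid mediator sphingosine-1-phosphate, went the other way: 6.55 to 10.4 CPM in cerebellum, 14.6 to 17.0 in striatum and 21.5 to 23.9 in cortex, with no overlap between regions. It was lower in cerebellum than in striatum (log2 -0.96, SE 0.203, adjusted p = 0.000718) and than in cortex (log2 -1.44, SE 0.203, adjusted p = 1.53e-05). The step from striatum to cortex missed the threshold in edgeR (log2 -0.48, adjusted p = 0.0757). It was called in limma voom with animals blocked across these 2 regions (log2 -0.48, adjusted p = 0.0277).

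Serpina3n, an inhibitor of serine proteases secreted by astrocytes, was 0.721 to 2.57 CPM in WT cerebellum, 3.81 to 7.11 in striatum and 13.1 to 15.1 in cortex. The cerebellum was lower than the cortex (log2 -3.17, SE 1.02, adjusted p = 0.0153), and the libraries of the 3 regions did not overlap. The adjusted p was 0.120 in limma voom with animals blocked across striatum and cortex, and 0.0624 in edgeR without cerebellum WT 2. Osmr, the oncostatin M receptor subunit, was also lower in cerebellum than in cortex (log2 -1.04, SE 0.368, adjusted p = 0.0258), although the ranges of 1.78 to 4.18 and 3.63 to 9.36 CPM overlapped and the call was lost without cerebellum WT 3 (adjusted p = 0.117), cortex WT 2 (0.143) or cortex WT 3 (0.0570). Against striatum (5.54 to 6.57 CPM) the cerebellar Osmr range did not overlap, but the difference missed the threshold (log2 -0.88, SE 0.370, adjusted p = 0.0506, edgeR). It was called in 5 of 9 other settings and in 5 of 19 fits with 1 library left out. Timp1, an inhibitor of matrix metalloproteinases, was read only 1 or 2 times in each WT striatum library, against 5 to 15 times in cerebellum and 4 to 26 in cortex. It was called in both comparisons with the striatum (adjusted p = 0.0163 and 0.0192), and with so few striatal counts its fitted fold depends on the prior count. The first call was lost without cerebellum WT 2 (0.0503) or striatum WT 2 (0.0531), and the second without cortex WT 1 (0.155), striatum WT 2 (0.0703) or striatum WT 3 (0.0565). Steap4, a metalloreductase, was 1.39 to 9.59 CPM in WT striatum. It was higher there than in cerebellum (log2 of cerebellum against striatum -1.78, SE 0.599, adjusted p = 0.018) and than in cortex (log2 2.72, SE 0.638, adjusted p = 0.00364). The first adjusted p was 0.0688 in limma voom with animals blocked. In edgeR it was 0.0515 without cerebellum WT 1 and 0.202 without striatum WT 2. The choroid plexus markers moved with Steap4 in the striatum. Steap4 was highest in striatum WT 2 (9.59 CPM), which also had the highest choroid plexus sum (9222 CPM), and lowest in striatum WT 3 (1.39 CPM), which had the lowest striatal sum (1581 CPM). This did not hold in WT cerebellum, where WT 1 had the highest sum (2011 CPM) and the lowest Steap4 level (1.35 CPM). The part of choroid plexus RNA in the Steap4 difference was not tested. Gfap, Cd44, Cp and Cxcl10 passed the threshold in none of the 3 WT comparisons of this fit. Gfap between striatum and cortex (log2 -0.69, SE 0.294, adjusted p = 0.0859) passed in DESeq2 (0.0492), without the 3 KI libraries numbered 2 (0.0171), without cortex WT 1 (0.0433) and without striatum KI 2 (0.0313). Cd44 between cerebellum and cortex (log2 0.88, SE 0.407, adjusted p = 0.0796) passed in limma voom with animals blocked (0.0464), in limma on the deposited normalized values (0.0475) and in edgeR without cortex WT 1 (0.00624).

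**Figure D2:**
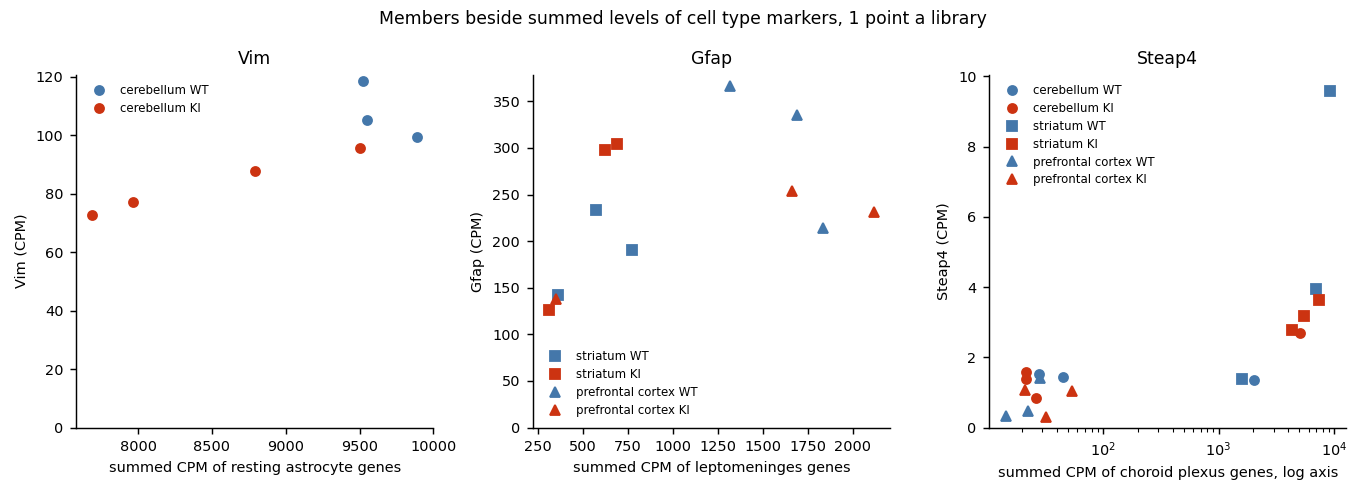
Members beside summed marker levels, 1 point a library: Vim against resting astrocyte markers in the cerebellum, Gfap against leptomeninges markers in striatum and prefrontal cortex, and Steap4 against choroid plexus markers (log axis) in all regions; all axes are in CPM. The 3 libraries with the lowest Gfap (126, 138 and 143 CPM) have the 3 lowest leptomeninges sums. The other cortex libraries do not follow that order: WT 3 has the highest Gfap (367 CPM) at a sum of 1320 CPM, and KI 1 has 231 CPM at 2117 CPM. The highest Steap4 level (9.59 CPM) lies at the highest choroid plexus sum.

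Between KI and WT mice, no member passed the adjusted threshold in edgeR in any region. Of all tested genes, 0.831% were called in the cerebellum, while 0.582% were called in the striatum and 0.107% in the cortex. At an unadjusted p under 0.05 there were 2 members in the cerebellum (Serpina3n and Vim), 2 in the striatum (Cxcl10 and Serpina3n) and 0 in the cortex, against 10.1%, 8.12% and 5.93% of all tested genes. DESeq2 called 1 member in the cerebellum, Serpina3n, and 0 in the other regions, with 2, 2 and 1 at an unadjusted p under 0.05. The estimated log2 fold change was above 0 for 9 of 10 members in the cerebellum, 7 of 10 in the striatum and 6 of 10 in the cortex. The medians were 0.30, 0.21 and 0.07, beside 0.01, -0.01 and 0.00 for all tested genes. Groups did not overlap for 3 members in the cerebellum (12.3% of all tested genes), 2 in the striatum (14.1%) and 0 in the cortex (8.69%).

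**Figure D3:**
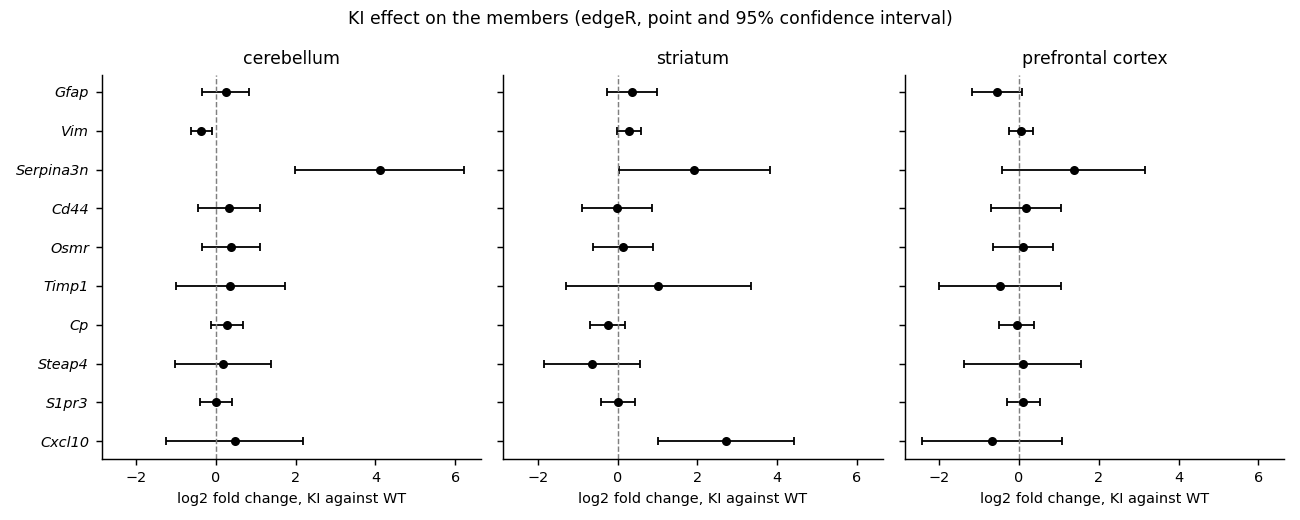
Log2 fold change of KI against WT (horizontal axis) for each member and region, from edgeR; points are estimates and bars 95% confidence intervals. Most intervals cross 0; those of Serpina3n in cerebellum (1.99 to 6.22) and striatum (0.03 to 3.83) and of Cxcl10 in striatum (1.02 to 4.42) lie above it and that of Vim in cerebellum (-0.63 to -0.11) below it, before adjustment for the number of genes.

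Serpina3n had the largest estimate of the members in the cerebellum. WT cerebellum libraries held 2.57, 0.721 and 1.29 CPM, and KI libraries 52.6, 44.3, 4.48 and 5.08 CPM. All 4 KI libraries lay above all 3 WT libraries, but KI 1 and KI 2 stood far above KI 3 and KI 4. The log2 fold change was 4.10 (SE 1.00, adjusted p = 0.0691, edgeR). The adjusted p was 0.000402 in DESeq2, and without KI 3 or KI 4 it was 0.0347 or 0.0359 in edgeR. It was 0.488 in limma voom with animals blocked across striatum and cortex, where cerebellum libraries shared no block. That fit also differs from edgeR in its test, so the change cannot be assigned to the block. In the striatum, WT libraries held 3.81, 5.72 and 7.11 CPM and KI libraries 11.2, 44.6 and 7.60 CPM, again without overlap (log2 1.93, SE 0.899, adjusted p = 0.599). Without striatum KI 2 the estimate was 0.76. In the cortex, WT libraries held 13.6, 15.1 and 13.1 CPM and KI libraries 19.7, 74.0 and 14.7 CPM (log2 1.38, SE 0.849, adjusted p = 0.908), and here KI 3 lay within the WT range. Without cortex KI 2 the estimate was 0.30. The sizes in striatum and cortex thus rested on the KI libraries numbered 2, whose residuals correlate between these 2 regions as those of the other same-numbered libraries do. The same 2 libraries had the lowest leptomeninges sum (313 and 350 CPM) and the lowest Gfap level (126 and 138 CPM) of their regions. Other libraries went another way: striatum WT 3, with sums of 364 CPM for leptomeninges and 143 CPM of Gfap, held 7.11 CPM of Serpina3n. Cerebellum KI 1, with 52.6 CPM of Serpina3n, had the highest leptomeninges sum of its region (2657 CPM). The part of tissue composition in the Serpina3n values was not tested. The KI effect did not differ between regions past the threshold. The log2 difference between cerebellum and striatum had a 95% interval of -0.60 to 4.95 (adjusted p = 0.836). Between cerebellum and cortex it was 2.73 (SE 1.28, adjusted p = 0.809), with a 95% interval of 0.02 to 5.44 before adjustment for the number of genes.

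Serpina3n belongs to a cluster of near-identical paralogs, so the split of reads among them is uncertain. Of its 10 listed paralogs only Serpina3g and Serpina3m also passed the low-count filter. Serpina3m was read 34 and 25 times in cerebellum KI 1 and KI 2, 27 times in striatum KI 2 and 26 times in cortex KI 2, and 0 or 1 times in each of the other 15 libraries. These 4 libraries were the ones with the 4 highest Serpina3n counts (935, 799, 609 and 988). In them Serpina3m made up 3.51%, 3.03%, 4.25% and 2.56% of the reads on both genes. In cortex KI 1, where Serpina3n was next highest at 325 counts, Serpina3m had 0 counts, which allows a share of up to 0.923% (counting error alone), below the lower Wilson 95% limits of the 4 (1.76% to 2.93%).

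**Figure D4:**
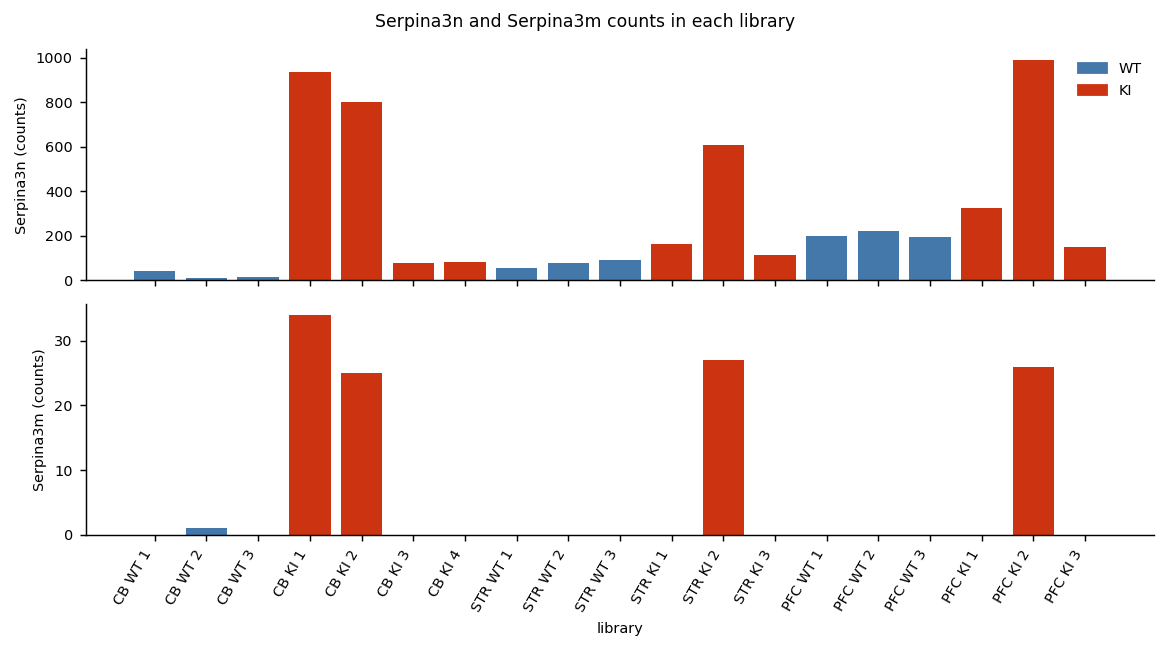
Counts of Serpina3n (upper bars) and of its paralog Serpina3m (lower bars) in each of the 19 libraries, WT and KI by region (CB cerebellum, STR striatum, PFC prefrontal cortex). Serpina3m is above 1 count only in the 4 KI libraries with 609 to 988 Serpina3n counts.

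Of the filament genes, Gfap had an estimate above 0 and Vim one below 0 in the KI cerebellum. Gfap was 249, 236 and 253 CPM in WT and 273, 252, 269 and 367 CPM in KI cerebellum (log2 0.24, SE 0.275, adjusted p = 0.855). KI 4 was the highest library and KI 2 fell within the WT range. Vim was 99.4, 118 and 105 CPM in WT and 95.8, 87.7, 77.2 and 72.6 CPM in KI, so that every KI library was below every WT library (log2 -0.37, SE 0.124, adjusted p = 0.246). Beside this, the resting astrocyte sum was 9521 to 9890 CPM in WT and 9505, 8794, 7964 and 7691 CPM in KI 1 to KI 4, the same order over the KI libraries as that of Vim. Pcp2, a Purkinje cell gene, had that order too (98.3, 95.6, 76.1 and 69.3 CPM). The cerebellar neuron sum did not, with 4176 CPM in KI 3 and 4353 CPM in KI 4. Of the 15 resting astrocyte genes, 1 was called in the cerebellum, Aldoc (aldolase C, log2 -0.62, SE 0.112, adjusted p = 0.00912), while 12 of 15 estimates were above 0. Aldoc was also the most abundant gene of that list, with a mean of 2239 CPM over all libraries, before Slc1a3 with 1326 CPM. The sum therefore weighs Aldoc most, and its fall does not describe most of the 15 genes. Purkinje cells also express Aldoc, so bulk tissue cannot assign the fall of Aldoc to astrocytes. The part of the resting astrocyte genes or of Purkinje cell RNA in the Vim values was not tested.

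In the striatum, Gfap was 234, 190 and 143 CPM in WT and 304, 126 and 298 CPM in KI (log2 0.36, SE 0.294, adjusted p = 0.826), and the groups overlapped because KI 2 was the lowest of all 6 libraries. Vim was 25.7, 20.5 and 19.5 CPM in WT and 27.7, 23.4 and 29.5 CPM in KI (log2 0.29, SE 0.141, adjusted p = 0.619). In the cortex, Gfap was 214, 336 and 367 CPM in WT and 231, 138 and 254 CPM in KI (log2 -0.56, SE 0.294, adjusted p = 0.893), and Vim was 22.7 to 29.1 CPM in WT and 23.3 to 29.0 CPM in KI. Resting astrocyte markers in the cortex were 6098 to 6766 CPM in WT and 5018 to 5978 CPM in KI, with 0 of 15 genes called. The Gfap values of the 3 libraries with low leptomeninges sums (126 CPM in striatum KI 2, 138 CPM in cortex KI 2, 143 CPM in striatum WT 3) were the 3 lowest of these regions. The other cortex libraries did not follow that order: WT 3 had the highest Gfap (367 CPM) at a sum of 1320 CPM, and KI 1 had 231 CPM at 2117 CPM. The part of tissue composition in the Gfap values was not tested. The KI effect on Vim differed between cerebellum and striatum by log2 -0.66 (SE 0.188, adjusted p = 0.366), where 0.0119% of all tested genes were called. That on Gfap differed between striatum and cortex by 0.92 (SE 0.415, adjusted p = 1), where 0% of all genes were called, and 0.0178% were called between cerebellum and cortex. No member passed in any of these 3 comparisons of effects.

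Cxcl10 encodes a chemokine that attracts T cells through the receptor CXCR3 and is induced by interferons. Its counts in the striatum were 5, 1 and 0 in WT and 19, 13 and 11 in KI libraries (0.334, 0.0743 and 0 against 1.28, 0.953 and 0.727 CPM). Every KI library lay above every WT library, on 6 WT counts in all, and the difference missed the threshold (log2 2.72, SE 0.806, adjusted p = 0.227). With 1 library left out the estimate for Cxcl10 ran from 2.20 to 4.43, the highest without WT 1, which held 5 of the 6 WT counts, and no setting passed the threshold. In the cerebellum the counts were 4, 2 and 2 in WT and 3, 3, 4 and 8 in KI (log2 0.47, SE 0.814, adjusted p = 0.921), and in the cortex 3, 1 and 12 in WT and 5, 1 and 3 in KI (log2 -0.68, SE 0.832, adjusted p = 0.976). The effect in striatum exceeded that in cortex by log2 3.40 (SE 1.17, adjusted p = 1), and 1 cortex library, WT 3, held 12 of the 16 WT counts there. Of the other CXCR3 ligands and the receptor, none passed the low-count filter: Cxcl9 was read 0 to 5 times and Cxcl11 0 to 11 times a library. By contrast, a list of 12 interferon-stimulated genes was called higher in KI mice for 11 of 12 members in the cerebellum, 12 of 12 in the striatum and 7 of 12 in the cortex, among them Irf9 and Oasl2, and its summed level was 72.9 to 97.0 CPM in WT and 328 to 532 CPM in KI striatum. That list was chosen with results of these data known, and so is no independent evidence of its direction.

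The other secreted and surface members had no estimate with an unadjusted p under 0.05. Cp, ceruloplasmin, a copper-carrying ferroxidase, was 24.2, 22.7 and 23.1 CPM in WT and 34.9, 24.4, 26.9 and 26.8 CPM in KI cerebellum, without overlap (log2 0.28, SE 0.194, adjusted p = 0.706). Its estimate was -0.25 in the striatum and -0.06 in the cortex. Steap4 was 1.35 to 1.54 CPM in WT and 0.831 to 2.69 CPM in KI cerebellum, where the highest library, KI 3, was the one with the highest choroid plexus sum. WT 1, with a sum of 2011 CPM, had the lowest WT level (1.35 CPM). Without cerebellum WT 1 and KI 3 the Steap4 estimate was -0.23 in place of 0.17. In the striatum, Steap4 was 3.94, 9.59 and 1.39 CPM in WT and 3.18, 2.79 and 3.64 CPM in KI (log2 -0.63, SE 0.567, adjusted p = 0.857), so the KI range lay inside the WT range.

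Timp1 was read 5, 15 and 12 times in WT and 21, 10, 21 and 16 times in KI cerebellum (log2 0.36, SE 0.649, adjusted p = 0.922). In the striatum it was read 2, 1 and 1 times in WT and 0, 1 and 8 times in KI, so that KI 3 supplied 8 of the 9 KI counts, and in the cortex 26, 4 and 8 against 8, 7 and 9 times. The related inhibitor Timp2 rose in the KI cerebellum (log2 0.90, SE 0.204, adjusted p = 0.0485) and was the 1 gene called of 8 tested inhibitors and target proteases. Cd44, a receptor for hyaluronan, was 4.82 to 8.65 CPM in WT and 5.63 to 11.5 CPM in KI cerebellum (log2 0.33, SE 0.370, adjusted p = 0.851), with estimates of -0.01 in striatum and 0.17 in cortex. Osmr was 1.78 to 4.18 CPM in WT and 2.66 to 5.63 CPM in KI cerebellum (log2 0.38, SE 0.348, adjusted p = 0.8), with estimates of 0.14 and 0.10 elsewhere. S1pr3 was 6.55 to 10.4 CPM in WT and 5.49 to 9.85 CPM in KI cerebellum (log2 0.00, SE 0.191), 14.6 to 17.0 and 15.3 to 17.8 CPM in striatum, and 21.5 to 23.9 and 19.9 to 29.7 CPM in cortex. Its 95% interval ran from -0.40 to 0.41 in the cerebellum, from -0.41 to 0.43 in the striatum and from -0.31 to 0.51 in the cortex.

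**Figure D5:**
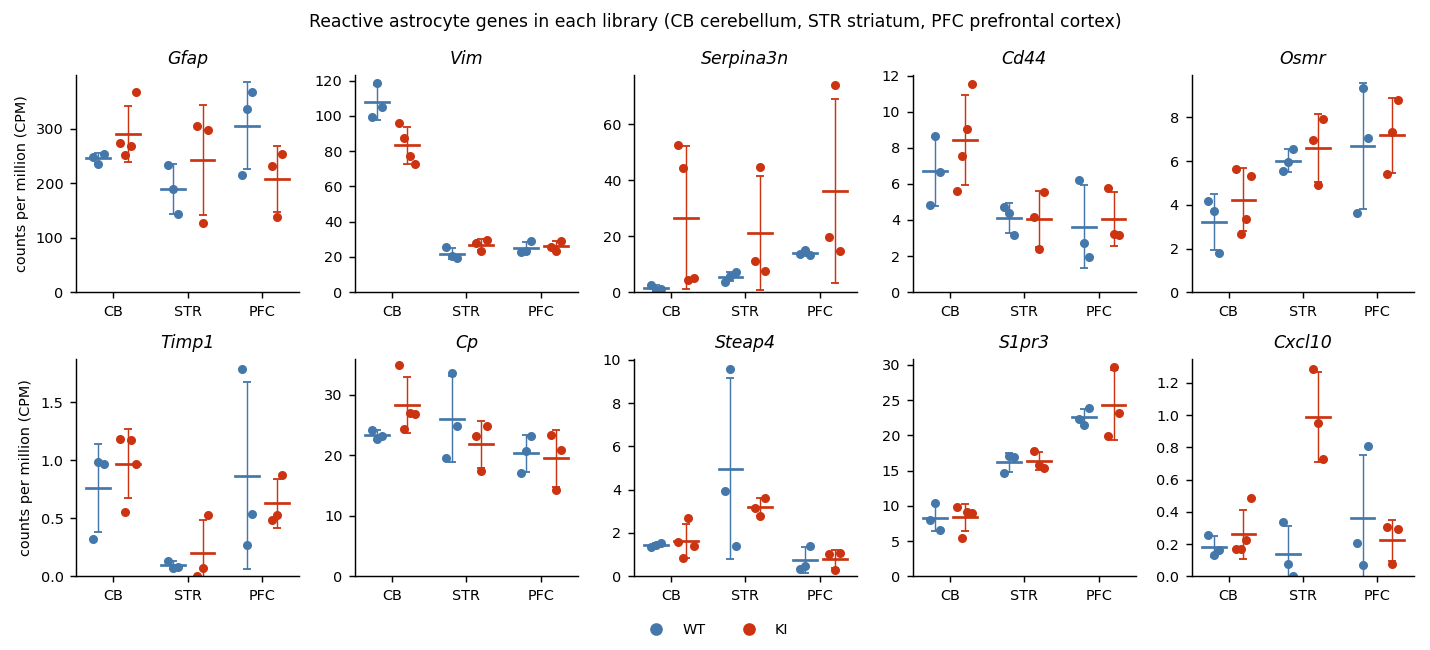
CPM of each member in every library (points) by region (CB cerebellum, STR striatum, PFC prefrontal cortex) and genotype, with the mean (bar) and SD (whisker); n = 4 for KI cerebellum and 3 otherwise, and each panel has its own scale from 0. Serpina3n is split among the 4 KI cerebellum libraries (52.6 and 44.3 against 4.48 and 5.08 CPM), Vim is lower in KI cerebellum, and Cxcl10 is separated by genotype in the striatum.

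Counts over the lists around the members stand beside 0.831%, 0.582% and 0.107% of all tested genes called in cerebellum, striatum and cortex, so a count of 0 in a list of this size is near the background. Of 11 tested genes of the oncostatin M and STAT3 pathway (Osmr, Il6st, Jak1, Stat3, Socs3 and others), 0 were called in any region, and the estimate of Stat3 itself in the cerebellum was log2 -0.0047 (SE 0.108). No gene was called among 9 tested genes of the hyaluronan and CD44 list, 8 of sphingosine-1-phosphate receptors and kinases, 11 of metal handling or 5 of glial filaments. Of the other pan-reactive markers Aspg, Hspb1 and Lcn2, 0 of 3 were called. Of 11 markers of the neuroinflammatory reactive type, 1 was called higher in the cerebellum, Psmb8 (an immunoproteasome subunit, log2 1.30, SE 0.288, adjusted p = 0.0395), and 1 in the striatum, Iigp1 (an interferon-inducible GTPase, log2 2.12, SE 0.463, adjusted p = 0.0469). Estimates were above 0 for 8 of 11 in the cerebellum (median log2 0.89) and for 7 in striatum and in cortex (0.07 in each). KI lay wholly above WT for 5 in cerebellum, 5 in striatum and 0 in cortex, and wholly below for 1 in striatum. Groups did not overlap for 12.3%, 14.1% and 8.69% of all tested genes. Of 9 tested markers of the ischaemia type, 0 were called. Of 15 markers of microglia, 11 rose in the KI cerebellum, where the summed level was 201 to 210 CPM in WT and 326 to 433 CPM in KI libraries, while 1 of 15 (Ctss) was called in the striatum and 0 in the cortex. Whether microglial RNA carries part of the cerebellar values of the members was not tested.

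After each group's mean was taken off, Pearson's r of log2 CPM over the 19 libraries among the 8 members with a mean of at least 1 CPM ran from -0.62 to 0.62 over 28 pairs, 15 of them above 0 (median 0.04). The highest values were Cp with Steap4 (0.62) and Gfap with Vim (0.55), and Gfap with Serpina3n was lowest (-0.62). The genes most like Serpina3n over all tested genes were Dnajc7 (0.92), Serpina3m (0.90) and Rab35 (0.89). Those most like Gfap were March8 (0.90), Etv1 (0.89) and Slain1 (0.89), and those most like Vim were Pde5a (0.85), Homer3 (0.83) and Adarb2 (0.83). For Cp they began with H2-Ab1 (0.91), for Steap4 with Cryzl2 (0.90), for S1pr3 with 1700112D23Rik (0.91), for Osmr with Rgs22 (0.90) and for Cd44 with Cog8 (0.87). These values are descriptions over libraries that share region and, in part, animals, and they were the highest of 16841 comparisons each.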

How the data were processed

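Libraries were made from total RNA by the authors with a full-length cDNA kit (SMART-Seq v4 and Nextera XT) and sequenced on an Illumina HiSeq1000. The deposited counts are whole reads per Ensembl gene without normalization, and the deposited signal table holds the same counts divided by a DESeq2 size factor per library. The submitters' processing notes name bcl2fastq 2.17.1.14, STAR 2.5.2b, HTSeq, DESeq2 1.10.1 and build GRCm38.p3. The study's text names Cufflinks and Cuffdiff, which need reads and were not run. The use of strand and the counting settings are not given in the sources used here. Gene names, positions and exon lengths came from GENCODE M21 on GRCm38, in which 40254 of 41128 identifiers matched. Promoters came from the RefSeq table (GRCm38.p6), in which all 10 members matched.

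The test was edgeR 4.0.16 (R 4.3.3) on the deposited counts: filterByExpr on 6 groups (16841 genes kept), TMM scaling and 1 quasi-likelihood fit of all 19 libraries (13 residual degrees of freedom, common biological coefficient of variation 0.191), with Benjamini-Hochberg adjustment over all tested genes and 0.05 as the threshold. P-values measure the spread between libraries. The members, lists and tests were chosen with earlier results of these data known. The text names all members, genes of the other lists that were called (at most 5 a list) or were abundant, and the 3 most similar genes for members of at least 1 CPM; Serpina3m, Serpina3g and Cxcl9 were named after their values were seen. Results for 1 gene of the interferon-stimulated list are not reported here singly. A permutation test planned for members under the filter was not needed, as all 10 passed. Floors used 3 counts and intervals the Wilson method at 95%, for counting error alone. Alternatives were DESeq2 1.42.0, its size factors in edgeR, no filter, each region alone, replicate blocks, a sex covariate (Xist against Y-linked counts), limma 3.58.1 on log2(signal + 1) and each library left out in turn. Added after the data were seen were a block across striatum and prefrontal cortex alone, and fits without the KI libraries numbered 2 and without cerebellum WT 1 and KI 3. The edgeR, DESeq2 and limma fits with 1 mean per group were tested on simulated counts. The blocks, the sex covariate and the other settings were not.

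Replicate numbers were checked as pairings. Residuals of same-numbered striatum and prefrontal cortex libraries correlated at 0.161 to 0.369 in 6 of 6 pairs, so these numbers are taken as animals. Xist and Ddx3y counts put each such pair on the same side, so a shared animal cannot be told apart from shared sex. Different-numbered pairs were not compared. WT and KI libraries within a region, which cannot be 1 animal, were over 0.1 in 1, 1 and 2 of 3 pairs. Their highest values were 0.352 in cortex and 0.263 in cerebellum, both for number 1. Residuals of cerebellum and other regions were over 0.1 in only 3 and 2 of 6 pairs, and there Xist and Ddx3y counts put same-numbered libraries on different sides. As a check for 1 library entered under 2 names, the chi-square per degree of freedom over 21 pairs of replicates was 4.95 to 30.0, and no pair agreed within sampling noise.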

Additional observations from a re-analysis of the deposited data

How the results depend on the processing

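Of 326 estimates of the KI effect on members under other settings, 309 kept their direction and side of the threshold, 2 passed it newly and 15 changed sign; with 1 library left out, 538 of 570 kept both, 2 passed newly and 30 changed sign. Of the WT regional estimates, 247 of 270 kept both under other settings (6 lost the threshold, 13 passed newly, 4 changed sign), and 542 of 570 with 1 library left out (11, 9 and 8). All sign changes were of estimates that passed no threshold. Timp1 and Cxcl10, at a few counts a library, are limited by depth.

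The members called in the KI cerebellum numbered 1 (Serpina3n) in DESeq2 and 1 (Serpina3n, adjusted p = 0.0297) with no filter, in place of 0, and 0 to 1 with 1 library left out: Serpina3n passed without KI 3 (adjusted p = 0.0347) or KI 4 (0.0359). Its adjusted p over the settings lay between 0.000402 and 0.489. The members called between WT cerebellum and striatum ranged from 2 to 5 with 1 library left out (2 without striatum WT 2). The members called between WT striatum and cortex were 4 without the 3 KI libraries numbered 2, in place of 2, and 1 to 3 with 1 library left out (1 without striatum WT 2 or WT 3).

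The replicate block within regions gave Serpina3n in the cerebellum 4.21 (adjusted p = 0.0510) and called 0 members in any KI comparison; it cannot give WT regional differences. Blocks across regions used limma voom with an estimated correlation of 0.0465 over 3 regions and 0.170 over striatum and prefrontal cortex. Over all settings, the adjusted p of S1pr3 between WT striatum and cortex was 0.0240 to 0.112, that of Serpina3n between WT cerebellum and cortex 0.00168 to 0.120 and that of Steap4 between WT cerebellum and striatum 0.00765 to 0.0688. Besides the calls already given with animals blocked, Cd44 was called between WT cerebellum and cortex (log2 1.01, adjusted p = 0.0464). No other call changed in the fit across striatum and prefrontal cortex, where cerebellum libraries shared no block. Limma voom without a block was not run, so an effect of the pairing cannot be told apart from one of the test.

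Sign changes under other settings were as follows. In the cerebellum, without WT 1 and KI 3, Timp1 was -0.12, Steap4 -0.23 and S1pr3 -0.068. S1pr3 there was also -0.0028 in DESeq2, -0.00074 with DESeq2 size factors, -0.0056 in the authors' normalized table, -0.044 with the replicate block within regions, -0.025 with that across regions and -0.024 with that across striatum and cortex. Striatal Timp1 was -0.011 under both replicate blocks across regions. Without the KI libraries numbered 2, Cd44 was 0.25 in the striatum, and Cp 0.12 and S1pr3 -0.077 in the cortex; Cp there was 0.051 with the sex covariate. Timp1 between WT cerebellum and cortex was 0.040 under both blocks, 0.039 in the authors' table and 0.18 without cerebellum WT 1 and KI 3. The causes were not tested.

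With 1 library left out, the estimates that changed sign had these ranges. KI cerebellum: Timp1 -0.0091 to 0.61, Steap4 -0.19 to 0.39, S1pr3 -0.14 to 0.19. KI striatum: Cd44 -0.31 to 0.25, Osmr -0.018 to 0.31, Timp1 -1.26 to 1.59, Steap4 -1.07 to 0.26, S1pr3 -0.055 to 0.054. KI cortex: Vim -0.035 to 0.17, Cd44 -0.18 to 0.81, Osmr -0.20 to 0.42, Timp1 -0.91 to 0.59, Cp -0.21 to 0.12, Steap4 -0.25 to 0.95, S1pr3 -0.079 to 0.23, Cxcl10 -1.16 to 0.68. WT cerebellum against striatum: Cp -0.34 to 0.059, Cxcl10 -0.19 to 2.05. WT cerebellum against cortex: Timp1 -0.62 to 0.88, Cxcl10 -1.42 to 0.41. WT striatum against cortex: Cd44 -0.12 to 0.81, Osmr -0.45 to 0.17, Cxcl10 -2.99 to 0.062. Differences of the KI effect: Gfap, cerebellum against striatum, -0.43 to 0.075; Cxcl10, cerebellum against cortex, -0.21 to 1.63; Serpina3n, striatum against cortex, -0.62 to 1.64.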

Other observations

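Of the other pan-reactive astrocyte markers, Lcn2, which encodes the iron-siderophore carrier lipocalin 2, was read 35 times in prefrontal cortex WT 2 and 16 times in striatum KI 3, and 0 to 10 times in each of the other 17 libraries. Aspg, an asparaginase gene, was 1.16, 0.983 and 1.54 CPM in WT and 1.91, 1.72, 1.62 and 1.75 CPM in KI cerebellum, without overlap (log2 0.52, SE 0.375, adjusted p = 0.715 in edgeR). Among cell types that border astrocytes, 0 of 12 genes of endothelium and pericytes were called in any region, with summed levels of 397 to 435 CPM in WT and 396 to 434 CPM in KI cerebellum. Of the 6 listed Bergmann glia markers (Gdf10, Hopx, Fabp7, Slc1a6, Sept4 and A2m), 0 were called. Their summed level in the cerebellum was 1520 to 1826 CPM in WT and 1419 to 1619 CPM in KI libraries. Bulk tissue cannot assign this sum to 1 cell type, and it includes Slc1a6, which Purkinje cells also express. Pcp2, a Purkinje cell gene, fell by 1.16 on the log2 scale in the KI cerebellum (SE 0.136, adjusted p = 0.000196) and was the 1 gene called of 6 cerebellar neuron markers.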
